A study of Mus musculus with 16 samples.

Results

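The 10 genes described here encode the carnitine shuttle and the core enzymes of mitochondrial beta-oxidation in cultured primary mouse hepatocytes: *Cpt1a*, *Slc25a20*, *Cpt2*, *Acadvl*, *Acadl*, *Acadm*, *Acads*, *Hadha*, *Hadhb* and *Hadh*. They were picked out of the 55450 genes quantified by their symbols. All 10 were found under those symbols and all 10 were among the 11675 genes tested, those whose average over the libraries reached 1 CPM (the count of a gene as a share of all counts in its library, with library sizes scaled by edgeR's TMM factors). RNA was sequenced in bulk from hepatocytes of wild-type mice, which the study's methods describe as adult male C57BL/6J animals. The cells were kept overnight in serum-containing medium with insulin, transferrin and selenium, and all groups shared that medium. They were left untreated, or were given 10 mM sodium itaconate, a chemically defined mixture of fatty acids and cholesterol diluted 10-fold, or both. Each of these 4 groups (untreated, itaconate, lipid, lipid + itaconate) had 4 libraries with the replicate letters A to D. The labels do not say whether letters stand for separate animals or cultures, so p values measure the spread between these libraries, which may be technical.

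Long-chain fatty acids cannot cross the inner mitochondrial membrane as coenzyme A esters. CPT1A, on the outer membrane, transfers the acyl group to carnitine and is the main point of control of the pathway in liver. SLC25A20 exchanges the acylcarnitine for free carnitine across the inner membrane, and CPT2 rebuilds the acyl-CoA on the matrix side. Beta-oxidation then shortens the chain in repeated rounds. An acyl-CoA dehydrogenase chosen by chain length (ACADVL, ACADL, ACADM or ACADS) makes the first double bond, and the trifunctional protein of HADHA and HADHB carries out the remaining steps for long chains. HADH serves medium and short chains at the dehydrogenation of the hydroxyl group. Itaconate is a metabolite that activated macrophages make from the citric acid cycle, and the study asked how it acts on hepatocytes with and without added lipid.

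Libraries held 22346049 to 35512004 expected counts, with a median of 27719372. The lowest count of any of the 10 genes in a library was 346 (*Slc25a20*) and the highest was 8403 (*Acadm*), so counting error was at most 5.38% of a value. Lipid + itaconate replicate B stood apart from its group across all genes, with a chi-square per gene of at least 106 against the group's other libraries. Among all other pairs of libraries of 1 group the highest value was 64.53, for lipid + itaconate replicates A and C. The hepatocyte label was met by all 9 hepatocyte markers found in the table (*Alb*, *Ttr*, *Apoa1*, *Hnf4a* and others), whose summed level was 31260 to 55640 CPM. Of the macrophage markers, 8 of 10 were over 1 CPM, with *Ptprc* and *Timd4* under it, and of the endothelial markers 5 of 6, with a sum of at most 22.6 CPM. Of the stellate cell markers 1 of 7 (*Reln*) was over 1 CPM and *Acta2* was at 0 in 15 libraries. Of the cholangiocyte markers 2 of 5 (*Sox9* and *Spp1*) were over 1 CPM, while *Krt19*, *Krt7* and *Epcam* were under it.

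Levels of the 10 genes can be set against each other only per length, and were divided by the length of the principal transcript. In untreated hepatocytes *Acadm*, the medium-chain dehydrogenase, had the highest level of the 10, at 109 ± 8.57 CPM per kilobase (SD, n = 4). *Acadvl* followed at 60.9 ± 3.13 CPM per kilobase, and the ranges of both genes stood clear of each other and of the next gene. *Acadl*, *Acads*, *Hadh*, *Hadhb* and *Hadha* came next, from 43.2 ± 1.79 down to 29.2 ± 1.61 CPM per kilobase. Each neighbouring pair among these 5 genes overlapped between libraries, so the order of neighbours was not resolved. Further apart, *Acadl* (40.65 to 44.63) lay clear above *Hadh* (30.77 to 38.97), *Hadhb* and *Hadha*. *Acads* (34.31 to 43.99) lay clear above *Hadhb* (29.84 to 31.1) and *Hadha*. The shuttle stood at the bottom, with *Cpt2* at 14.7 ± 0.89, *Slc25a20* at 9.95 ± 0.913 and *Cpt1a* at 8.16 ± 1.00 CPM per kilobase, of which *Slc25a20* and *Cpt1a* overlapped.

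Between untreated and lipid-treated hepatocytes, *Cpt1a*, *Slc25a20*, *Acadvl*, *Acadl*, *Hadha* and *Hadhb* fell, and *Acadm* and *Acads* rose. *Cpt2* and *Hadh* did not pass the test. These 8 calls among 10 genes (2 higher, 6 lower, adjusted p under 0.05 by the quasi-likelihood test of edgeR) stood beside 47.5% of all genes tested, 23.8% higher and 23.7% lower. The 10 genes had a median log2 fold change of −0.23, and that of all genes tested was 0.005. The groups did not overlap for 5 of the 10 genes, all lower with lipid, against 32.5% of all genes without overlap, 15.9% lower. The 8 called genes moved in 1 direction in all 4 letters, as did 58.5% of all genes tested. In bulk RNA, fewer cells of a type and less RNA per cell cannot be told apart. The mean sum of the hepatocyte markers was 44750 CPM in untreated and 39470 CPM in lipid-treated hepatocytes, with overlapping ranges. That of the macrophage markers was 224 CPM (167 to 278) and 283 CPM (224 to 323), and *Cd68*, also known outside macrophages, held most of it (mean 218 CPM over the 16 libraries). That of the cholangiocyte markers was 848 CPM (600 to 1171) and 467 CPM (336 to 609). Their part in the changes of the 10 genes was not tested.

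**Figure D1:**
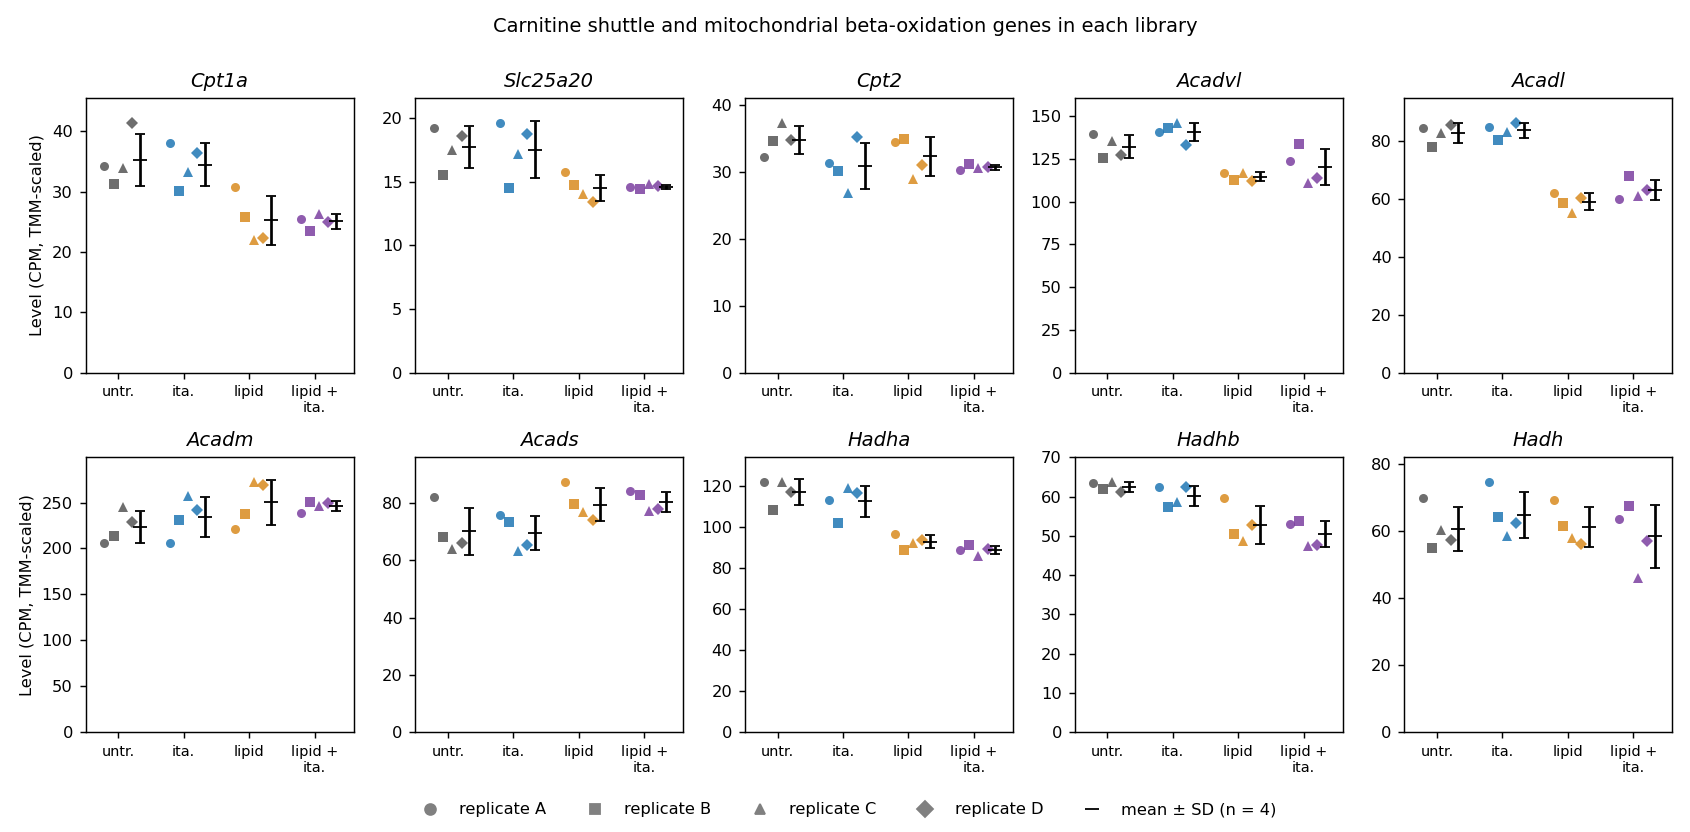
Level of each of the 10 genes (vertical axis, CPM, starting at 0) in each of the 16 libraries by treatment (horizontal axis; untr., untreated; ita., itaconate). Marker shapes are the replicate letters and bars are the mean ± SD of 4 libraries. *Acadl* lies between 55.1 and 67.8 CPM in the 8 libraries with lipid and between 77.9 and 86.4 CPM in the 8 without, whereas the 4 groups of *Hadh* overlap.

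*Cpt1a* (ENSMUSG00000024900.5, chromosome 19 from 3322334 to 3385733 in GRCm38, plus strand) stood at 34.3, 31.3, 34.0 and 41.4 CPM in untreated replicates A to D. With lipid it stood at 30.8, 25.7, 21.9 and 22.4 CPM. Every lipid-treated library was below every untreated one, although lipid replicate A lay just under untreated replicate B. The log2 fold change was −0.49 (standard error, SE, 0.093, 95% interval −0.68 to −0.29, adjusted p = 0.000523), a fall of 28.7%.

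*Slc25a20* (ENSMUSG00000032602.6, chromosome 9 from 108662088 to 108684641, plus strand), the carnitine-acylcarnitine exchanger, was at 19.3, 15.5, 17.5 and 18.6 CPM in untreated and at 15.8, 14.8, 14.0 and 13.4 CPM in lipid-treated hepatocytes. Each letter was lower with lipid, but untreated replicate B lay under lipid replicate A, so the groups overlapped. Its log2 fold change was −0.29 (SE 0.080, adjusted p = 0.00798). *Cpt2* (ENSMUSG00000028607.16, chromosome 4 from 107903981 to 107923610, minus strand), the matrix enzyme of the shuttle, was at 32.2, 34.6, 37.4 and 34.9 CPM in untreated and at 34.5, 35.0, 28.9 and 31.1 CPM in lipid-treated hepatocytes. It was higher in 2 letters and lower in 2, and its log2 fold change of −0.11 (95% interval −0.27 to 0.05, adjusted p = 0.256) did not pass the test. Within the shuttle, the genes of the outer membrane enzyme and of the carrier thus fell, while the interval for *Cpt2* included both no change and a fall of the size seen for *Acadvl*.

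Of the 4 acyl-CoA dehydrogenase genes among the 10, *Acadvl* and *Acadl* fell and *Acadm* and *Acads* rose. *Acadl* (ENSMUSG00000026003.5, chromosome 1 from 66830839 to 66863277, minus strand), the long-chain enzyme, was at 84.7, 77.9, 82.9 and 85.5 CPM in untreated and at 62.1, 58.7, 55.1 and 60.3 CPM in lipid-treated hepatocytes. The highest lipid-treated library lay well below the lowest untreated one. Its log2 fold change was −0.49 (SE 0.050, 95% interval −0.59 to −0.38, adjusted p = 1.7e-06), the smallest adjusted p of the 10 genes in this comparison.

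*Acadvl* (ENSMUSG00000018574.14, chromosome 11 from 70010183 to 70015411, minus strand), the very-long-chain enzyme, went from 140, 126, 136 and 127 CPM to 117, 113, 117 and 112 CPM. The groups did not overlap, and the log2 fold change was −0.20 (SE 0.052, adjusted p = 0.00459). Exons of *Acadvl* overlap those of *Dvl2* on the opposite strand, and whether reads were counted by strand is not given in the sources used here.

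*Acadm* (ENSMUSG00000062908.12, chromosome 3 from 153922357 to 153944632, minus strand), the medium-chain enzyme, was at 206, 213, 245 and 229 CPM in untreated and at 222, 238, 272 and 269 CPM in lipid-treated hepatocytes. It rose in every letter while the groups overlapped, with a log2 fold change of 0.16 (SE 0.046, adjusted p = 0.00893), a rise of 11.9%. *Acads* (ENSMUSG00000029545.13, chromosome 5 from 115110299 to 115119346, minus strand), the short-chain enzyme, was at 82.3, 68.1, 64.2 and 66.1 CPM in untreated and at 87.3, 79.8, 76.8 and 74.2 CPM in lipid-treated hepatocytes. Untreated replicate A was high, and the log2 fold change was 0.18 (SE 0.046, adjusted p = 0.00370). Both rises rested on the pairing of libraries by letter. In the model without the replicate letter the log2 fold changes were 0.16 and 0.18, with adjusted p = 0.105 for *Acadm* and 0.0835 for *Acads*, so that 6 of the 10 genes were called.

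These opposite directions changed the make-up of dehydrogenase mRNA while its sum stayed within the spread of the libraries. Summed over the 4 dehydrogenase genes, the level was 251 ± 8.65 CPM per kilobase (SD, n = 4) in untreated and 248 ± 8.24 CPM per kilobase in lipid-treated hepatocytes. *Acadl* made up 17.2% of that sum in untreated, 16.8% in itaconate, 12.4% in lipid and 13.1% in lipid + itaconate hepatocytes. *Acadm* made up 43.5%, 43.9%, 49.1% and 47.8% in the same order. The ratio of *Acadm* to *Acadl* per kilobase was 2.27 to 2.77 in the untreated and 2.27 to 2.89 in the itaconate libraries. It was 3.34 to 4.62 in the lipid and 3.46 to 3.77 in the lipid + itaconate libraries, so that all 8 libraries with lipid lay above all 8 without. In the order of levels per kilobase, *Acads* (42.5 CPM per kilobase) ranked 3 and *Acadl* (30.8 CPM per kilobase) ranked 5 in lipid-treated hepatocytes, whereas *Acadl* ranked 3 in untreated ones. *Acadl* overlapped *Acads* in untreated and *Hadh* in lipid-treated libraries, so the ranks of *Acadl* were not resolved. The lipid-treated libraries of *Acads* (39.65 to 46.7 CPM per kilobase) lay clear of those of *Acadl* (28.75 to 32.42). With both agents *Acads* (41.39 to 45.07) also lay clear of *Acadl* (31.38 to 35.4).

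**Figure D2:**
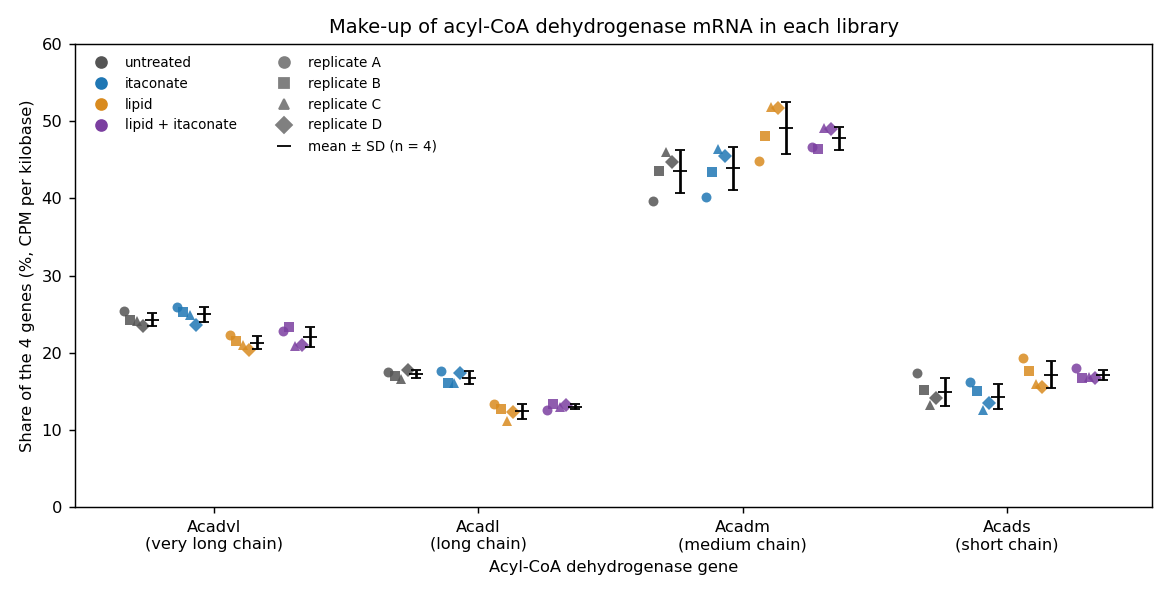
Share of each acyl-CoA dehydrogenase gene in the summed level of the 4 genes (vertical axis, percent of CPM per kilobase, starting at 0) in each library, by gene (horizontal axis) and treatment (colour). Shapes are replicate letters and bars the mean ± SD of 4 libraries. The share of *Acadl* was 17.2% in untreated and 12.4% in lipid-treated hepatocytes, and that of *Acadm* was 43.5% and 49.1%.

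The subunits of the trifunctional protein fell together. *Hadha* (ENSMUSG00000025745.12, chromosome 5 from 30118304 to 30155162, minus strand), which carries the hydratase and the long-chain hydroxyacyl-CoA dehydrogenase, was at 122, 108, 122 and 117 CPM in untreated and at 96.4, 89.0, 92.0 and 93.9 CPM in lipid-treated hepatocytes. *Hadhb* (ENSMUSG00000059447.13, chromosome 5 from 30155248 to 30184593, plus strand), the thiolase subunit, was at 63.4, 61.9, 63.7 and 61.1 CPM in untreated and at 59.7, 50.4, 48.7 and 52.8 CPM in lipid-treated hepatocytes. Neither gene overlapped between the groups, and lipid replicate A of *Hadhb* lay nearest to the untreated libraries. The log2 fold changes were −0.33 (SE 0.046, adjusted p = 3.11e-05) for *Hadha* and −0.25 (SE 0.053, adjusted p = 0.00142) for *Hadhb*. The ratio of *Hadha* to *Hadhb* per kilobase was 0.890 to 0.979 in untreated and 0.824 to 0.964 in lipid-treated libraries, which overlapped. *Hadhb* had expected counts that were not whole in all 16 libraries, so some of its reads also fitted other genes. Exons of *Hadha* overlap those of *Garem2* on the opposite strand, so the limit given for *Acadvl* also holds for *Hadha*.

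*Hadha* and *Hadhb* lie head to head on chromosome 5, on opposite strands, with their starts 86 bases apart in GENCODE and 273 bases apart in RefSeq. The 250 bases before each RefSeq start (RefSeq, GRCm38.p6) are shown because the genes share most of them: the window of *Hadha* is chr5:30154981-30155230 on the minus strand and that of *Hadhb* is chr5:30155003-30155252 on the plus strand. Both RefSeq starts lie inside the genes as GENCODE draws them (*Hadha* up to 30155162, *Hadhb* from 30155248). Capitals mark the 228 bases (30155003 to 30155230) that lie in both windows, read 5′ to 3′ on the strand of each gene. Of these, the bases from 30155003 to 30155162 lie inside *Hadha* by GENCODE.
Hadha: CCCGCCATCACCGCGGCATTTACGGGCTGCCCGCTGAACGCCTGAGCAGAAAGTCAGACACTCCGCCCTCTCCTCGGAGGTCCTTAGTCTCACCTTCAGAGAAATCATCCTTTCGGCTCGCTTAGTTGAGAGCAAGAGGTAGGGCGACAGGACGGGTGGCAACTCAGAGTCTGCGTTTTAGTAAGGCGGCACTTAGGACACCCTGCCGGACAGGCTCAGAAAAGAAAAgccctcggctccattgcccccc
Hadhb: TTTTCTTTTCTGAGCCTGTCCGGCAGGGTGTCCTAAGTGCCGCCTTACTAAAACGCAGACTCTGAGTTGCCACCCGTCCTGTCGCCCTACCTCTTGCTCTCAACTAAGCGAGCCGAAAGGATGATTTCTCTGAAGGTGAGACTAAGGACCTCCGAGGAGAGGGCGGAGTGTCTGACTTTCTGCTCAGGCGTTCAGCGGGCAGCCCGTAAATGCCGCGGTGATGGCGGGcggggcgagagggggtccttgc

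*Hadh* (ENSMUSG00000027984.8, chromosome 3 from 131233419 to 131272101, minus strand), the medium- and short-chain hydroxyacyl-CoA dehydrogenase, was at 69.7, 55.1, 60.3 and 57.2 CPM in untreated and at 69.4, 61.4, 58.1 and 56.0 CPM in lipid-treated hepatocytes. Replicate A was high in both groups. The log2 fold change was 0.01 (95% interval −0.14 to 0.17, adjusted p = 0.891).

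The comparison of lipid + itaconate with itaconate hepatocytes gave the effect of lipid between the groups that the first comparison did not contrast. Both came from 1 model of all 16 libraries, with a shared spread and shared letter effects, so they are not independent. In lipid + itaconate against itaconate, 7 of the 10 genes were called (1 higher, 6 lower). Of all genes tested 47% were called (23.5% higher and 23.5% lower). The median log2 fold change was −0.24, against 0.004 for all genes. The mean sum of the macrophage markers was 195 CPM with itaconate and 264 CPM with both, and that of the cholangiocyte markers was 761 and 493 CPM, and their part in these changes was not tested. *Cpt1a* (−0.46, adjusted p = 0.000931), *Slc25a20* (−0.26, adjusted p = 0.0145), *Acadvl* (−0.23, adjusted p = 0.00234), *Acadl* (−0.41, adjusted p = 9.91e-06), *Hadha* (−0.34, adjusted p = 3.01e-05) and *Hadhb* (−0.25, adjusted p = 0.00113) fell, each in all 4 letters. *Acads* rose (log2 fold change 0.21, adjusted p = 0.00131), and its lipid + itaconate libraries (84.3, 82.8, 77.4 and 77.8 CPM) all lay above its itaconate libraries (75.9, 73.5, 63.4 and 65.5 CPM). *Acadm*, at 206, 231, 257 and 242 CPM with itaconate and at 239, 251, 246 and 250 CPM with both, had a log2 fold change of 0.08 (95% interval −0.02 to 0.18, adjusted p = 0.174). Replicate C went the other way, and without lipid + itaconate replicate C the change was 0.12 (adjusted p = 0.0274). *Cpt2* (−0.01, adjusted p = 0.927) and *Hadh* (−0.15, adjusted p = 0.0949) did not pass. *Hadh* was at 63.7, 67.4, 46.0 and 56.9 CPM with both agents, and without lipid + itaconate replicate B, the library that stood apart, its change was −0.25 (adjusted p = 0.00529) and 8 genes were called. The call of *Slc25a20* was lost without itaconate replicate A (adjusted p = 0.0503), itaconate replicate D (0.0617) or lipid + itaconate replicate A (0.0574). The groups did not overlap for 5 of the 10 genes (*Cpt1a*, *Acadl*, *Acads*, *Hadha* and *Hadhb*), against 31.4% of all genes, and 7 kept 1 direction in all 4 letters, against 55.3%.

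**Figure D3:**
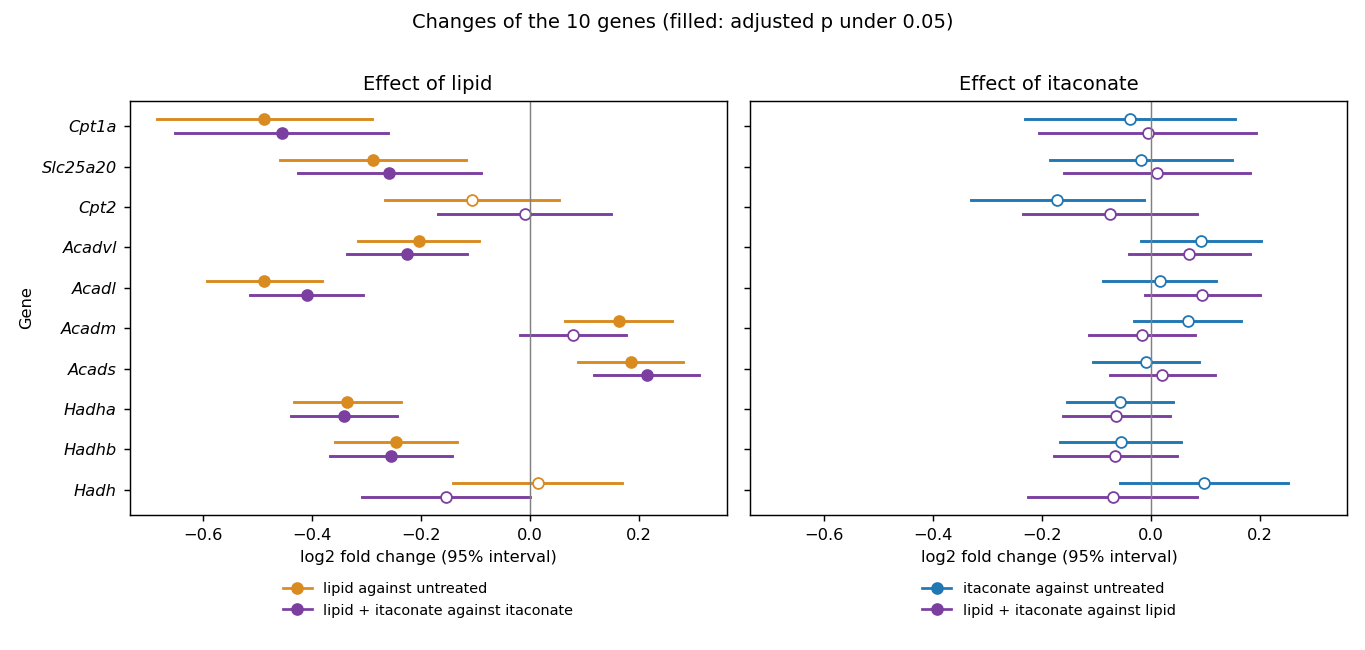
Log2 fold change (horizontal axis) with its 95% interval for each of the 10 genes, from edgeR's model of all 16 libraries. The left panel gives the effect of lipid without and with itaconate, the right panel the effect of itaconate without and with lipid, and filled points have an adjusted p under 0.05. On the left 8 and 7 genes are filled, and on the right 0 and 0.

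No change with itaconate was called among the 10 genes. In itaconate-treated against untreated hepatocytes 0 of the 10 genes were called, beside 4.91% of all genes tested (1.96% higher, 2.95% lower). DESeq2 and limma-trend also called 0. At an unadjusted p under 0.05 there was 1 of the 10, *Cpt2*, beside 2482 of all 11675 genes tested. *Cpt2* stood at 31.3, 30.2, 26.9 and 35.3 CPM with itaconate, lower in 3 letters and higher in D. Its log2 fold change was −0.17 (95% interval −0.33 to −0.01, adjusted p = 0.202). Changes of the 10 genes on the log2 scale ran from −0.17 (*Cpt2*) to 0.10 (*Hadh*), with a median of −0.01 beside −0.002 for all genes. *Acadvl*, *Acadl* and *Acadm* were higher in all 4 letters and *Hadha* was lower in all 4, so that 4 of the 10 genes kept 1 direction, beside 37.3% of all genes. *Cpt1a*, the controlling step, was at 38.1, 30.0, 33.3 and 36.3 CPM with itaconate, overlapping the untreated libraries. Its log2 fold change of −0.04 had a 95% interval of −0.23 to 0.16. The groups overlapped for all 10 genes, whereas 7.53% of all genes had groups that did not overlap.

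With lipid present, 0 of the 10 genes were called between lipid and lipid + itaconate hepatocytes, beside 2.58% of all genes (1.32% higher, 1.26% lower). At an unadjusted p under 0.05 there were 0 of the 10, beside 2025 of all 11675 genes tested. DESeq2 and limma-trend also called 0. The log2 fold changes ran from −0.07 (*Cpt2*) to 0.09 (*Acadl*, 95% interval −0.01 to 0.20, adjusted p = 0.343), with a median of −0.01. Of the 10 genes 0 kept 1 direction in all 4 letters, beside 21.2% of all genes, and 0 had groups that did not overlap, beside 5.82%. *Cpt1a* was at 25.4, 23.4, 26.4 and 25.0 CPM with both agents, and its change against lipid alone was −0.01 (95% interval −0.21 to 0.19). *Hadha* was at 88.9, 91.1, 85.9 and 89.2 CPM, with a change of −0.06 (95% interval −0.16 to 0.04). The interval for *Hadha* lay clear of its own change with lipid (−0.33).

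The interaction of lipid and itaconate, which is the difference between the effects of lipid with and without itaconate, was called for 0 of the 10 genes, beside 0.00857% of all genes (1 gene). At an unadjusted p under 0.05 the count was 0 as well, beside 1004 of all 11675 genes tested, and DESeq2 and limma-trend called 0. The estimates ran from −0.17 (*Hadh*, 95% interval −0.39 to 0.05, adjusted p = 0.693) to 0.10 (*Cpt2*), with a median of 0.01. The comparisons of lipid and of itaconate with untreated hepatocytes share the untreated libraries, and both comparisons with lipid + itaconate share that group, so their values for a gene are not independent.

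Of 23 other enzymes and carriers of mitochondrial fatty acid oxidation, 21 were tested, and *Cpt1c* and *Slc25a29* were under the filter. With lipid 10 of the 21 fell and 1 rose, with a median log2 fold change of −0.17 beside 0.005 for all genes, and in the presence of itaconate 11 fell and 1 rose, with a median of −0.20. Of all genes tested 23.7% fell and 23.8% rose with lipid, and 23.5% each way in the presence of itaconate. *Slc22a5*, the carnitine importer of the plasma membrane, was at 14.3, 15.8, 14.8 and 17.7 CPM in untreated and at 10.9, 10.8, 8.31 and 9.18 CPM in lipid-treated hepatocytes. Its groups lay clear of each other, and its log2 fold change was −0.68 (SE 0.093, adjusted p = 2.88e-05). *Eci2*, an enoyl-CoA isomerase for unsaturated chains, fell (−0.46, adjusted p = 1.70e-05), as did *Etfa*, a subunit of the flavoprotein that takes electrons from the dehydrogenases (−0.36, adjusted p = 8.90e-05). *Etfa* went from 147, 144, 141 and 136 CPM to 102, 113, 114 and 112 CPM. *Echs1*, *Eci1*, *Decr1*, *Etfdh*, *Acad11*, *Acadsb* and *Pccb* also fell, by 0.18 (*Eci1*) to 0.34 (*Acad11*) on the log2 scale. The fall of *Eci1* was just under the threshold (adjusted p = 0.0461), and the groups of *Echs1* and *Etfdh* overlapped. The gene that rose was *Acad9*, known as an assembly factor of respiratory complex I (0.21, adjusted p = 0.0237). With itaconate alone 1.96% of all genes tested rose and 2.95% fell, with a median of −0.002. Of the 21, *Eci2* rose (0.23, adjusted p = 0.0321) and 0 fell, with a median of 0.03. That call was lost without the replicate letter (adjusted p = 0.151) and when itaconate B, C or D, or untreated A, B or D, was left out (0.0581 to 0.160). With lipid present 0 of the 21 genes were called for itaconate, beside 2.58% of all genes, with 10 changes positive and 11 negative. *Eci2* did not pass there, but it was higher in all 4 letters without overlap (0.19, adjusted p = 0.0919). For the interaction 0 of the 21 were called, beside 0.00857% of all genes.

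**Figure D4:**
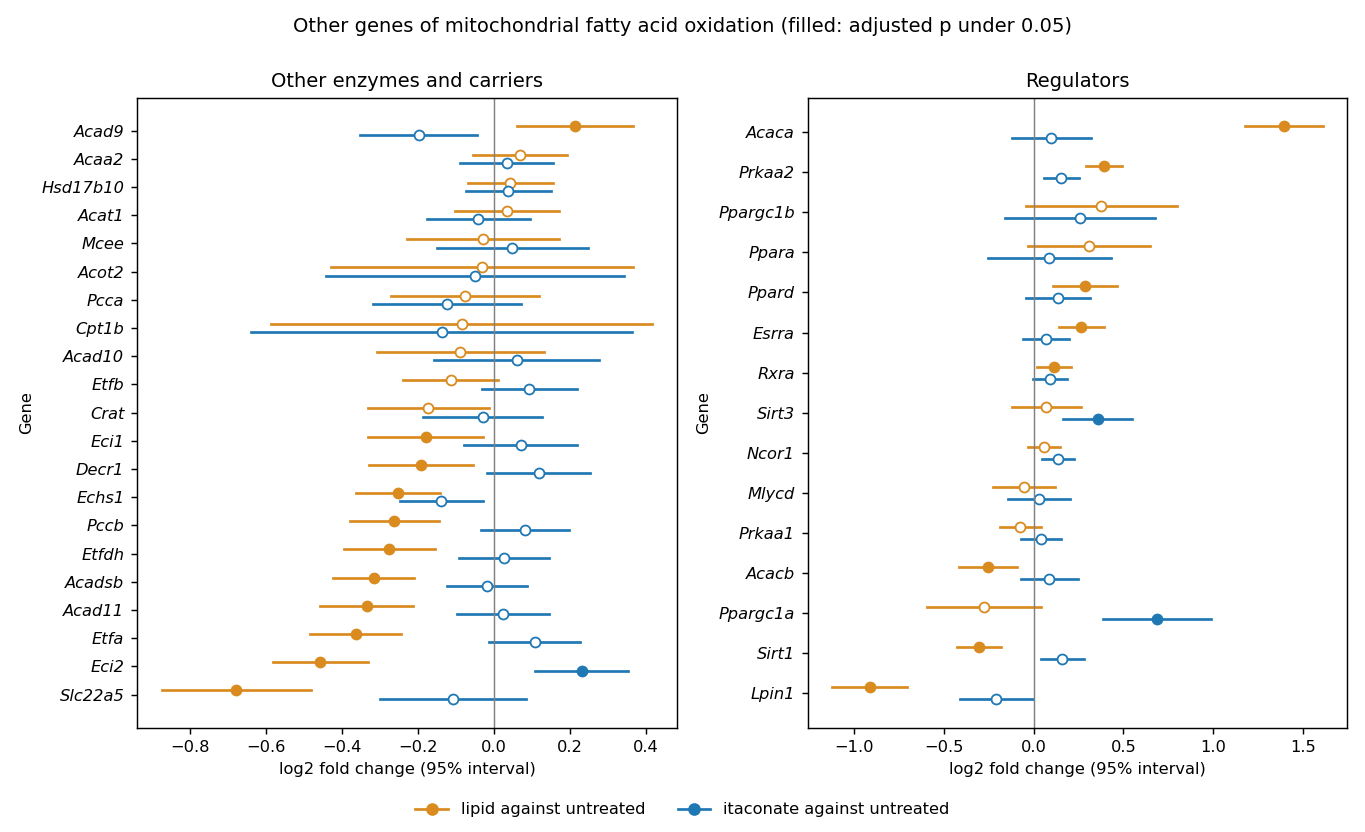
Log2 fold change (horizontal axis) with its 95% interval for 21 other enzymes and carriers (left) and 15 regulators (right) of mitochondrial fatty acid oxidation, ordered by the effect of lipid; filled points have an adjusted p under 0.05. With lipid (orange) 10 enzymes fell and 1 rose, and with itaconate (blue) *Eci2*, *Ppargc1a* and *Sirt3* are filled.

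All 15 regulators of the pathway were tested. With lipid 5 rose and 3 fell, with a median of 0.07, and in the presence of itaconate 3 rose and 4 fell, with a median of −0.05. Calls over all genes tested were 47.5% and 47%, so the counts of regulators lay near the background. *Acaca*, which encodes a carboxylase that makes malonyl-CoA, the inhibitor of CPT1A, stood at 48.4, 47.4, 44.5 and 48.3 CPM in untreated and at 126, 104, 128 and 138 CPM in lipid-treated hepatocytes. Its log2 fold change of 1.39 (SE 0.103, adjusted p = 6.65e-08) was the largest rise of the list. *Acacb*, whose product makes malonyl-CoA at the outer mitochondrial membrane, went from 52.6, 68.0, 76.6 and 76.8 CPM to 52.8, 57.6, 55.0 and 62.9 CPM (log2 fold change −0.26, adjusted p = 0.0120), lower in 3 letters. These carboxylase genes moved in opposite directions.

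*Lpin1*, a phosphatidate phosphatase known as a coactivator of PPAR alpha, fell from 61.6, 75.0, 71.8 and 70.1 CPM to 32.4, 37.5, 34.3 and 43.9 CPM (−0.91, adjusted p = 3.01e-06). *Sirt1*, a deacetylase of the nucleus, fell as well (−0.30, adjusted p = 0.000488). *Prkaa2*, a catalytic subunit of AMP-activated protein kinase, rose (0.39, adjusted p = 8.30e-06), and *Ppard* rose (0.28, adjusted p = 0.0114) in 3 of 4 letters. *Esrra* and *Rxra*, both nuclear receptors, were also called higher. *Esrra* rose in all 4 letters without overlap (0.27, adjusted p = 0.00193). The rise of *Rxra* was just under the threshold (0.11, adjusted p = 0.0496), in 3 of 4 letters and with overlapping groups. *Ppara*, the nuclear receptor best known for driving this pathway in liver, had a log2 fold change of 0.31 (adjusted p = 0.126) and did not pass the test. The call of *Acad9* was lost without the replicate letter (adjusted p = 0.0527) and when lipid B, untreated C or untreated D was left out (0.0606 to 0.0677). That of *Acacb* was lost without the letter (0.0919) or untreated C (0.0665), and that of *Ppard* without untreated C, untreated D or lipid D (0.0501 to 0.0634).

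With itaconate alone 2 of the 15 regulators rose, *Ppargc1a* and *Sirt3*, beside 1.96% of all genes tested. *Ppargc1a*, a coactivator of mitochondrial genes, was at 3.51, 2.74, 3.32 and 3.35 CPM in untreated and at 5.33, 4.69, 5.54 and 5.22 CPM in itaconate-treated hepatocytes. The groups lay clear of each other, with a log2 fold change of 0.69 (SE 0.141, adjusted p = 0.0120). *Sirt3*, a mitochondrial deacetylase, went from 14.8, 12.6, 13.8 and 12.1 CPM to 15.5, 18.5, 15.6 and 18.4 CPM (0.36, adjusted p = 0.0328), also without overlap. Both calls were lost in the model without the replicate letter, with adjusted p = 0.0716 for *Ppargc1a* and 0.119 for *Sirt3*. That of *Ppargc1a* was also lost without itaconate replicate C (adjusted p = 0.0596), and that of *Sirt3* when itaconate B, C or D, or untreated A, B or D, was left out (0.0522 to 0.122). The median of the 15 regulators was 0.10, beside −0.002 for all genes. With lipid present 1 of the 15, *Acaca*, was called for itaconate, beside 2.58% of all genes. It was at 115, 92.2, 71.0 and 80.3 CPM with both agents. *Acaca* was lower than with lipid alone in all 4 letters, with overlapping groups (−0.48, adjusted p = 0.0221). This call was lost without the replicate letter (adjusted p = 0.159), in a model of the 8 compared libraries alone (0.249), and when lipid + itaconate D (0.0757), lipid C (0.0678) or lipid D (0.0896) was left out. For the interaction 0 of the 15 regulators were called, beside 0.00857% of all genes.

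Among themselves, several of the genes that fell with lipid varied together over the 16 libraries. Pearson's r of log2 CPM, after the mean of each letter was taken out, was 0.95 for *Hadha* with *Hadhb*, 0.94 for *Acadl* with *Hadha* and 0.93 for *Cpt1a* with *Slc25a20*. It was −0.84 for *Cpt1a* with *Acadm* and −0.86 for *Acadl* with *Acads*. *Cpt2* and *Hadh* followed no member closely, with r of at most 0.48 for *Cpt2* and 0.62 for *Hadh*. These values describe libraries that share treatments, so the difference between libraries with and without lipid is part of each r.

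Of 9635 genes that averaged 5 CPM or more, those with the pattern most like *Cpt1a* over the 16 libraries, outside the 10 genes, were *Aldh3a2* (r = 0.97), *Vnn3* (0.96), *Eml3* (0.96), *Slc22a5* (0.96) and *Ibtk* (0.96). For *Hadha* those reported here were *Slc38a4* (0.98), *Abcc2* (0.98), *Dap* (0.97) and *Hpn* (0.97). Within the 8 libraries without lipid r was 0.51 (*Ibtk*) to 0.81 (*Slc22a5*) for the genes named with *Cpt1a* and 0.65 (*Abcc2*) to 0.89 (*Dap*) for those named with *Hadha*. Within the 8 libraries with lipid it was 0.77 (*Slc22a5*) to 0.96 (*Eml3*) and 0.51 (*Hpn*) to 0.81 (*Slc38a4*).

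RefSeq promoters of all 10 genes, from 250 bases before to 50 bases after the start, were searched on both strands. The hexamer AGGTCA, the unit of nuclear receptor sites, was in 3 of the 10 (*Cpt1a*, *Acadvl* and *Acadm*), and in 16.3% of all 32851 promoters. Its repeat with 1 base between, AGGTCANAGGTCA, which contains the hexamer, was in 0 of the 10 and in 0.0396% of all. The GC box GGGCGG was in 8 of the 10, all but *Acadvl* and *Acadm*, and in 35.7% of all promoters. The only box of *Hadha* lies in the bases shared with *Hadhb* and was also counted for *Hadhb*. The median GC content was 61.5% in the 10 and 52.7% in all. CCAAT was in 2 (*Cpt1a* and *Hadh*) and in 37.4% of all, and TATAAA in 0 and in 13.6%. The 250 bases before the starts of *Cpt1a* (chr19:3323051-3323300, plus strand) and *Acadm* (chr3:153944644-153944893, minus strand) are shown because both hold the hexamer while the genes moved in opposite directions with lipid. Capitals mark the hexamer, on the reverse strand in both. The RefSeq start of *Cpt1a* lies inside the gene as GENCODE draws it. The match describes the letters and is not evidence of a site.
Cpt1a: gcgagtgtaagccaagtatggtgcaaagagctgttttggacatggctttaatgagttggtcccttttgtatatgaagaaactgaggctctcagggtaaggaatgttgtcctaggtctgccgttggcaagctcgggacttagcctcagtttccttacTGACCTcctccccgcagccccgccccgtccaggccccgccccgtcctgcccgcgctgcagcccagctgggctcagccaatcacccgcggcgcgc
Acadm: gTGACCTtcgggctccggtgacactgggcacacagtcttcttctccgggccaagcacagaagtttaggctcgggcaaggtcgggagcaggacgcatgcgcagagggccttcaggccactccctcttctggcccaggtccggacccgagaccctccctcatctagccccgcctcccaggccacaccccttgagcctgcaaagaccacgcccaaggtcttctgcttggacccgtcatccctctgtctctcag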

How the data were processed

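The deposited values are gene-level expected counts from RSEM 1.3.1, which the authors made from a stranded mRNA library kit after trimming with Cutadapt 1.18 and alignment to mm10 with STAR 2.7.0f. Of these values 5.41% had a fractional part. The authors' later filter, batch removal and tests were not used. Here the expected counts were rounded and fitted with edgeR 4.0.16 (R 4.3.3), using TMM normalization, the 11675 genes that averaged 1 CPM or more over 16 libraries, and 1 quasi-likelihood model with treatment and replicate letter. Benjamini-Hochberg adjustment ran over all genes tested, with a threshold of 0.05, and intervals are 95%.

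Same-letter libraries deviated together from their group means (24 correlations of 0.144 to 0.469), so the letter, taken from the sample labels, was kept. The 72 other-letter pairs of different groups had a median of −0.114 and a highest value of 0.1785, so the ranges overlapped. In simulated counts for lipid against untreated (11675 genes), 97% of 100 genes changed 1.5-fold and 100% of 100 genes changed 2-fold were recovered. Of the calls 6.64% were false. Smaller changes and changes with itaconate were not simulated. Among the shuttle and core enzyme genes, the largest change with lipid was smaller than 1.5-fold. It was a fall to 0.71 of the untreated level (*Cpt1a* and *Acadl*). The recovery rates therefore do not give the power of the test for these genes, with lipid or with itaconate.

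All 55450 identifiers matched GENCODE (GRCm38). Named were the 10 genes, those of the 2 pathway lists (drawn up from general knowledge) called for itaconate or the interaction, the 3 largest rises and falls of each list among genes called for lipid, and the 5 genes most like *Cpt1a* and *Hadha*. Of the last, 1 gene is not reported here. *Ppara*, *Esrra*, *Rxra* and the other enzymes that fell were chosen for naming once their values had been seen. The genes and lists were chosen with earlier results of these data known. Alternatives were no replicate letter, RLE normalization, no filter, filterByExpr, DESeq2 1.42.0, limma-trend (limma 3.58.1), only the 8 libraries of a comparison, and each library left out. Protein sequences were not used here.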

Additional observations from a re-analysis of the deposited data

How the results depend on the processing

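The count of the 10 genes called kept within 1.5 times under every alternative, and with single libraries left out it was 8 to 8 for lipid against untreated, 6 to 8 for lipid + itaconate against itaconate, and 0 to 0 for itaconate with or without lipid and for the interaction. Without the replicate block it was 6, 7, 0, 0 and 0. Of 1140 alternatives for single genes among the 10, 1083 kept direction and side of the threshold, 5 lost the call, 3 gained it and 49 turned direction.

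The turns were of changes close to 0. *Acads* with itaconate became 0.0001 without a low-count filter, and *Cpt1a* for lipid + itaconate against lipid became 0.0025 with limma-trend. With single libraries left out, the log2 fold change with itaconate ranged from −0.0923 to 0.0569 (*Cpt1a*), −0.0575 to 0.0499 (*Slc25a20*), −0.0158 to 0.0427 (*Acadl*) and −0.0358 to 0.0392 (*Acads*). For lipid + itaconate against lipid it ranged from −0.0942 to 0.0828 (*Cpt1a*), −0.046 to 0.0753 (*Slc25a20*), −0.0567 to 0.0277 (*Acadm*) and −0.163 to 0.0119 (*Hadh*). For *Hadh* with lipid it was −0.0525 to 0.076, and for *Cpt2* in lipid + itaconate against itaconate −0.0671 to 0.0655. The interaction ranged from −0.0614 to 0.118 (*Cpt1a*), −0.0427 to 0.0946 (*Slc25a20*), −0.0918 to 0.0296 (*Acadvl*), −0.0237 to 0.0567 (*Acads*), −0.0626 to 0.0225 (*Hadha*) and −0.0644 to 0.0348 (*Hadhb*). Without a low-count filter *Hadh* gained a call in lipid + itaconate against itaconate (−0.15, adjusted p = 0.0429, edgeR).

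Among the other enzymes and regulators, 3 genes called for itaconate became 0 without the replicate block, 5 with DESeq2 and 9 with only the 8 libraries, and 0 to 7 with single libraries left out (0 without itaconate replicate C, 7 without lipid + itaconate replicate C). The 1 gene called for lipid + itaconate against lipid became 0 without the block or with only the 8 libraries, and 0 to 2 with single libraries left out. For the interaction, 0 became 1 without a filter and 1 with DESeq2. With lipid they numbered 19 (13 without the block, 14 to 21 with single libraries left out), and with lipid in the presence of itaconate 19 (17 to 19). The cause of these differences was not tested. Over all genes, 573 were called for itaconate against untreated (23 without the block, 791 with DESeq2, 1091 without a filter, 1859 with the 8 libraries), 301 for lipid + itaconate against lipid (9, 512, 725 and 14) and 1 for the interaction (36 with DESeq2, 231 without a filter). The lowest count of the 10 genes in a library was 346 (*Slc25a20*). The 95% interval for itaconate on *Cpt1a* reached −0.23 on the log2 scale.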
